A study of Mus musculus with 4 samples.

Results

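The genes described here belong to cytokine signalling through gp130 and STAT3. They were chosen by name, as the rows for Osmr, Cebpd, Il6st, Jak1, Jak2, Socs2, Socs3, Bcl3, Lif and Lifr. Of these 10 genes, 8 stood in the deposited table of 6940 genes, and Socs2 and Lif were not analysed here. Messenger RNA was sequenced from oligodendrocytes, the glia that build myelin, in 2 libraries of conditional knockout (cKO) cells and 2 control libraries. The cKO cells carried Olig1cre/+ and Zdhhc5fl/fl, so that Cre recombinase, expressed from the Olig1 locus, deletes the floxed Zdhhc5 gene in the oligodendrocyte lineage. The controls carried Zdhhc5fl/fl without Cre. Zdhhc5 encodes an enzyme that attaches palmitate to proteins. Both genotypes were C57BL/6 mice at postnatal day 5, and their cortical precursors were enriched by immunopanning with antibodies against GalC and O4, grown for 6 days and kept for 24 h in medium with 40 ng/mL of triiodothyronine. Cre and the changed Olig1 locus were present in the cKO cells alone, so their effects and those of losing Zdhhc5 cannot be told apart. Nothing in the labels tells whether libraries of 1 genotype are separate cultures or animals, so the p-values measure a spread between libraries that may be technical.

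Cytokines of the interleukin-6 family bind receptors that share the subunit gp130, the product of Il6st. Oncostatin M signals through gp130 paired with the Osmr product, and leukaemia inhibitory factor through gp130 paired with the Lifr product. The receptors carry no kinase of their own. The bound Janus kinases, Jak1 and Jak2, phosphorylate them, and the transcription factor STAT3 then docks, enters the nucleus and activates genes that include Socs3, Cebpd and Bcl3. The SOCS3 protein binds gp130 and the kinases and shuts the signal off. In the central nervous system, leukaemia inhibitory factor and ciliary neurotrophic factor are known as survival factors for oligodendrocytes, and the same pathway drives the filament gene Gfap in astrocytes. Stat3 and Zdhhc5 themselves were not analysed here, so no check of the labels by the targeted gene was made.

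Regions just before the RefSeq starts of these genes are shown first. Binding of STAT proteins to DNA at the palindrome TTCNNNGAA is the known route by which the pathway reaches its targets. Sequences come from RefSeq on GRCm38.p6, which held windows for 7 of the 8 listed genes, with 1 window each except Lifr, which had 2. The source held none for Cebpd, so Cebpd was not searched for either motif. In the 250 bases before the start, the palindrome, which reads the same on both strands, was found in the Socs3 window alone. It occurred in 7.02% of all 32851 windows of that length. A second motif was TTGCNNAA on either strand, a core of the C/EBP sites that the Cebpd product binds. It matched none of the members' windows and so had no overlap with the first, against 9.56% of all windows. A match is only a run of letters, and binding was not measured. The Socs3 window covers chr11:117969367-117969616 on the minus strand, and the match, in capitals, covers bases 117969512 to 117969520. That is 146 to 154 bases before the RefSeq start and 326 to 334 bases before the start of the coding transcript Socs3-201 in GENCODE M21. The bases between these starts were not searched. However, the windows of Socs3, Osmr and Lifr lie inside the gene spans of GENCODE M21. That of Osmr lies wholly under untranslated regions, so not every window is a region before a gene. Beside it stand the windows of Il6st, chr13:112463820-112464069 on the plus strand, and Jak2, chr19:29251553-29251802 on the plus strand, which held no match and which represent a member that was slightly higher and a member that was lower in cKO cells.
Socs3: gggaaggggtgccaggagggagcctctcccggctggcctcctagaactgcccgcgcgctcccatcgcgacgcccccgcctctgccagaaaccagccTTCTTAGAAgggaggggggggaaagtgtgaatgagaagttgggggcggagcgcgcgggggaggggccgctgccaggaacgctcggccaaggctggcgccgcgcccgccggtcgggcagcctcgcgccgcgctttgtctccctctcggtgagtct
Il6st: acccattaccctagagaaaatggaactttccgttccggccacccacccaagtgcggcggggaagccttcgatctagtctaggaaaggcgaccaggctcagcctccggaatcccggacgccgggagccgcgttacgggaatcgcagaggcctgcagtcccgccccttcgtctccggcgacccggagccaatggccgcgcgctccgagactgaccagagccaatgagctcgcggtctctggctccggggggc
Jak2: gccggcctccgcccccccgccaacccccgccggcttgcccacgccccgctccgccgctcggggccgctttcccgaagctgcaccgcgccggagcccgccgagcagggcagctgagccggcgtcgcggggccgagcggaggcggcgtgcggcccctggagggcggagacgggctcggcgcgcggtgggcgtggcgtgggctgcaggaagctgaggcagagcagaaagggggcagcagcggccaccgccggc
Of these 3 windows that of Jak2 was the richest in G and C, at 80.8%, against 71.6% for Socs3, 66.0% for Il6st and a median of 52.4% over all windows.

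Values below are normalised reads, that is, reads per gene divided by 1 size factor per library. Whole reads could be recovered from them, and the listed genes held 20068016 and 13672254 reads in cKO 1 and cKO 2 and 17077509 and 16773675 in control 1 and control 2. Counts of the 8 members lay between 542 and 12284 reads per library. The table as analysed here holds only genes with an adjusted p below 0.05 in the authors' deposited table, 40.0% of the 17347 genes behind their adjustment, so a call here repeats a selection on the same libraries and is not independent of it. The genotype contrast was fitted with limma to log2(value + 1), with calls at an adjusted p under 0.05. All listed genes passed (100%), with 46.7% higher and 53.3% lower in cKO cells and a median log2 fold change of -0.22. Beside this background, 6 of the 8 members were higher and 2 were lower in cKO cells, with a median log2 fold change of 0.23. In each of these 8 genes the values of the genotypes did not overlap, as in 46.7% (cKO above) and 53.3% (cKO below) of all listed genes. With 2 libraries against 2, an exact two-sided permutation test of a single gene cannot go below p = 0.333. The RNA came from whole cultures, in which fewer cells of a type and less RNA per cell cannot be told apart.

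**Figure D1:**
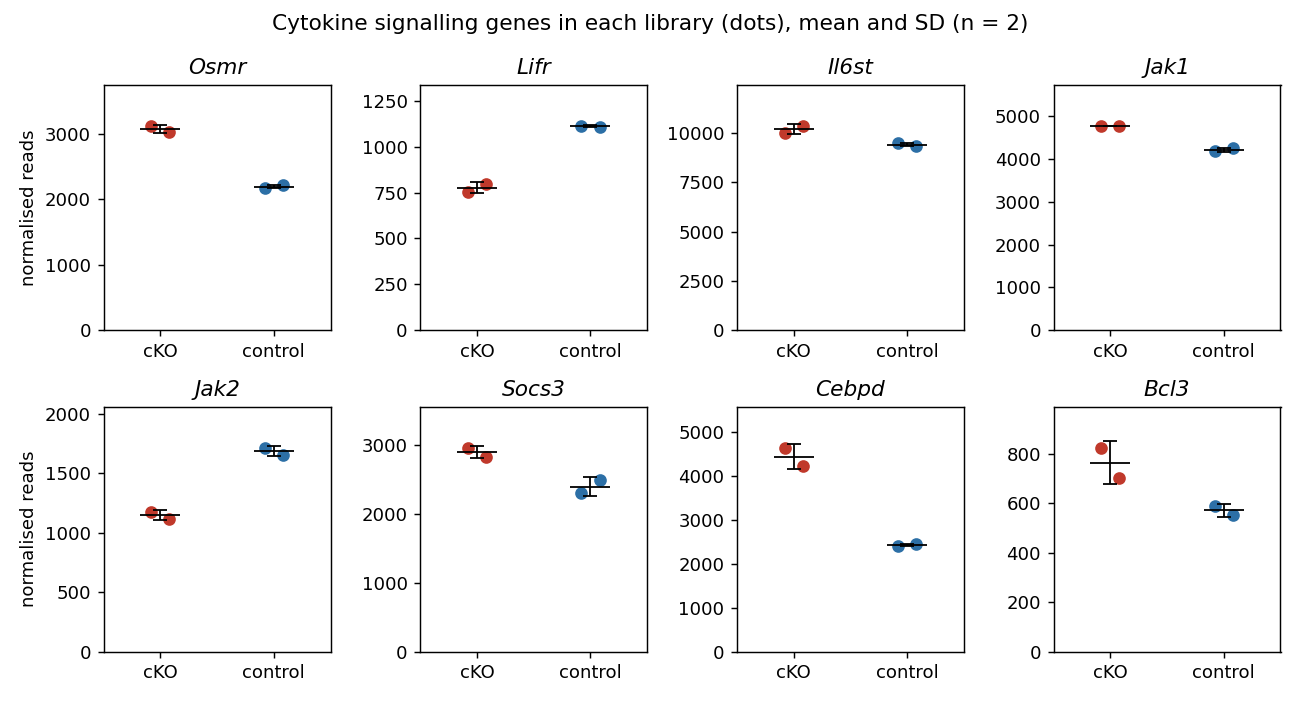
Normalised reads (vertical axis, from 0) of the 8 listed cytokine signalling genes in the 2 cKO libraries (red dots) and the 2 control libraries (blue dots), with mean and SD as bars. Osmr, Il6st, Jak1, Socs3, Cebpd and Bcl3 lie higher in both cKO libraries than in either control, and Lifr and Jak2 lie lower.

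The receptor subunits moved apart. Osmr (ENSMUSG00000022146, chromosome 15, 6813577 to 6874969 on GRCm38, minus strand), the oncostatin M receptor subunit, had 3121.5 and 3031.7 normalised reads in cKO cells, against 2172.0 and 2212.4 in control cells. It rose 1.40-fold, with means of 3076.6 ± 63.4 in cKO and 2192.2 ± 28.6 in control (SD, n = 2 each). The log2 difference of 0.49 (SE 0.04, adjusted p 1.24e-09 in limma) was close to the middle of all rises, since 48.1% of the listed genes that were higher in cKO cells had a larger one. Lifr (ENSMUSG00000054263, chromosome 15, 7090614 to 7197489, plus strand), the receptor subunit for leukaemia inhibitory factor, had 756.1 and 798.6 normalised reads in cKO cells, against 1116.0 and 1108.7 in control cells. It was 1.43-fold lower in cKO, with a log2 difference of -0.52 (SE 0.06, adjusted p 2.22e-07 in limma). Both cKO values of Lifr lay well under both control values, the opposite of Osmr, but this call was lost (adjusted p 0.0626) when the trend of all listed genes with GC content was removed. The genes are neighbours, 215644 bases apart on opposite strands, and GENCODE M21 places no protein-coding gene between them.

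Il6st (ENSMUSG00000021756, chromosome 13, 112464070 to 112510086, plus strand), the shared subunit gp130, had 10029.8 and 10383.9 normalised reads in cKO cells, against 9493.0 and 9358.6 in control cells. The difference was small, 1.08-fold, at 0.11 on the log2 scale (SE 0.03, adjusted p 0.00554 in limma), and 99.7% of the genes that were higher had a larger one. It did not hold in every fit: the adjusted p was 0.0991 without control 2 and 0.151 when limma used no variance trend.

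Levels of different genes can be compared only per length, and the length used here is that of the gene model in the deposited table, which joins the exons of all transcripts. Per kilobase of this model Il6st was the most abundant of the listed receptor subunits in both genotypes. Its level was 920 ± 22.6 normalised reads per kb in cKO and 849 ± 8.56 in control (SD, n = 2 each). Cntfr, which binds ciliary neurotrophic factor, followed at 597 in cKO and 429 in control, then Osmr at 254 ± 5.24 in cKO and 181 ± 2.36 in control. Il11ra1 and Lifr came next. Il11ra1, the interleukin-11 receptor, had a mean of 206 per kb in cKO and 98.1 in control, and Lifr 72.1 ± 2.79 in cKO and 103 ± 0.477 in control. Il11ra1 was the higher of the pair in the cKO libraries, and in the controls they did not differ beyond their spread, as both Lifr values lay between the values of Il11ra1. Il6ra, the receptor that binds interleukin-6 itself, came last at 15.8 per kb in cKO and 8.04 in control. The ranges of the other neighbours in this order did not overlap within a genotype. The levels depend on the length chosen, above all for Osmr, whose model has 12113 bases and whose longest GENCODE M21 transcript has 5491. Per kilobase of longest transcript, a measure added after seeing the data, the order of the means in cKO cells was the same, and Osmr had 560 ± 11.6 in cKO and 399 ± 5.2 in control (SD, n = 2 each). In the control libraries Il11ra1 then had 156 and 181, above Lifr at 116 and 115, and the order was otherwise unchanged.

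The ratio of Osmr to Lifr per kilobase of gene model was 3.67 and 3.38 in the cKO libraries and 1.73 and 1.78 in the control libraries. Its mean was thus 2.01-fold higher in cKO cells. By longest transcript the ratio was 7.26 and 6.68 in cKO and 3.42 and 3.51 in control, and the fold between the genotypes does not depend on the length. Against the common subunit, the ratio of Osmr to Il6st was 0.285 and 0.268 in cKO and 0.21 and 0.217 in control, and that of Lifr to Il6st was 0.0776 and 0.0792 in cKO and 0.121 and 0.122 in control. In each of these ratios both libraries of a genotype lay on the same side of both libraries of the other. For Osmr to Lifr and Lifr to Il6st this follows from the opposite changes without overlap of the genes. All were listed for a difference between genotypes, so the separation adds no further evidence. A ratio within a library does not depend on that library's size factor.

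**Figure D2:**
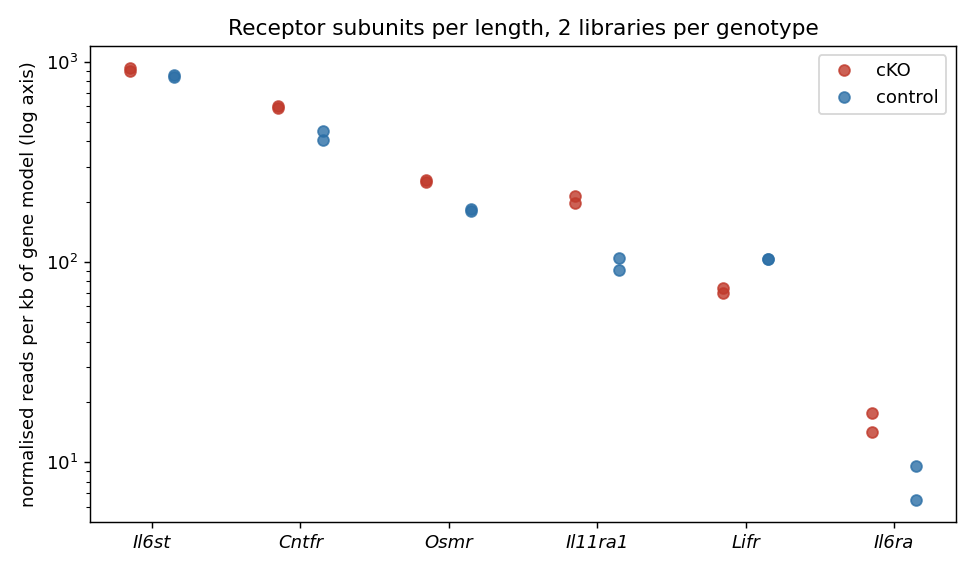
Normalised reads per kilobase of gene model (log axis) for 6 receptor subunits of the gp130 family in 2 cKO libraries (red) and 2 control libraries (blue). Il6st is highest and Il6ra lowest in both genotypes, and Il11ra1 and Lifr lie apart in cKO cells (206 and 72.1 per kb) and close together in control cells (98.1 and 103 per kb) on this length.

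Of the 7 genes on a list of receptors of the gp130 family, 6 were listed, with a median of 0.48 on the log2 scale. Of these, 5 were higher and 1 lower in cKO cells, where 46.7% and 53.3% of all listed genes were. Il11ra1 rose 2.10-fold, with 953.7 and 885.2 normalised reads in cKO, against 407.0 and 470.4 in control (log2 fold change 1.07, limma adjusted p 4.96e-11). Near-identical copies of Il11ra1 exist in the mouse, and reads could have been split between them. Il6ra had 121.7 and 151.9 normalised reads in cKO cells, against 83.0 and 56.0 in control cells, a rise on the log2 scale of 0.98 (SE 0.20) at a low level. The order of these 2 rises depends on the setting, since without the GC trend Il6ra was at 0.89 and Il11ra1 at 0.77. Cntfr rose 1.39-fold, with 1681.2 and 1638.7 normalised reads in cKO and 1259.0 and 1127.1 in control, but was at 0.09 on the log2 scale (adjusted p 0.479) without the GC trend. With the authors' scaling Osmr and Cntfr were at 0.49 and 0.48 on the log2 scale, whereas without the GC trend Osmr was at 0.76. Lifr alone among the listed subunits was lower with the authors' scaling.

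Of 9 ligands of the family considered here, Il11 was listed. It encodes interleukin-11 and had 13.9 and 26.1 normalised reads in cKO cells, against 3.0 and 4.1 in control cells. These are 17 and 22 recovered reads in cKO and 3 and 4 in control, so the log2 fold change of 2.16 (SE 0.59) rests on very few reads, and the call was lost without cKO 2 (1.72, limma adjusted p 0.132). The other 8, Lif, Il6, Osm and Cntf among them, were not analysed here.

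Both listed kinases moved in opposite directions. Jak1 (ENSMUSG00000028530, chromosome 4, 101152367 to 101265282, minus strand), which acts at all receptors of this family, had 4773.2 and 4782.0 normalised reads in cKO cells, against 4181.0 and 4252.7 in control cells. It rose 1.13-fold (0.18 on the log2 scale, SE 0.04, adjusted p 2.84e-04 in limma), a small change that lay outside the spread of either genotype. Jak2 (ENSMUSG00000024789, chromosome 19, 29251828 to 29313080, plus strand), which also serves growth hormone and erythropoietin receptors, had 1178.2 and 1119.0 normalised reads in cKO, against 1718.0 and 1658.5 in control. It was 1.47-fold lower in cKO, at -0.56 on the log2 scale (SE 0.06, adjusted p 6.41e-09 in limma). With the GC trend removed the call held but the log2 fold change was smaller, -0.19 (limma adjusted p 0.007), and that of Jak1 was 0.32. The ratio of Jak1 to Jak2 per kilobase of gene model, with no such removal, was 2.82 and 2.97 in cKO cells, against 1.69 and 1.78 in control cells. On the list of 10 Janus kinases and STAT factors, 3 were listed, with a median of 0.18 on the log2 scale. Of these, 2 were higher and 1 lower, where 46.7% and 53.3% of all listed genes were. The third, Stat6, which transmits interleukin-4 signals, rose 2.04-fold, with 215.6 and 225.5 normalised reads in cKO and 114.0 and 101.8 in control.

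Of 18 inhibitors of the pathway 10 were listed, 2 higher and 8 lower in cKO cells with the authors' scaling, where 46.7% and 53.3% of all listed genes were, and their median on the log2 scale was -0.36. The count depends on the setting. With the GC trend removed none passed as higher and 5 as lower (33.3% and 35.6% of all genes tested). With DESeq2 as run here, 2 passed as higher and 4 as lower (46.8% and 36.3%). Its size factors came from the listed genes alone, whereas in the authors' deposited table all 10 passed. Socs3 (ENSMUSG00000053113, chromosome 11, 117966079 to 117970047, minus strand) had 2960.6 and 2830.0 normalised reads in cKO cells, against 2294.0 and 2493.4 in control cells. It rose 1.21-fold (0.28 on the log2 scale, SE 0.05, adjusted p 3.03e-05 in limma). The gene is rich in G and C (58.7% of its longest transcript, against a median of 49.4% over listed genes), and its log2 fold change was -0.10 (adjusted p 0.184) once the trend of all listed genes with GC content was removed. Socs1, an inhibitor of interferon signals, was the other inhibitor that rose, with 112.7 and 87.8 normalised reads in cKO, against 49.0 and 52.9 in control, and its adjusted p was 0.0631 with the GC trend removed.

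Ptprt, a receptor phosphatase that acts on phosphorylated STAT3, was 2.14-fold lower, with 1428.1 and 1318.3 normalised reads in cKO and 2915.0 and 2968.8 in control. Its log2 fold change of -1.10 was -1.04 with the GC trend removed. Socs4 and Socs6, less studied members of the SOCS family, were 1.96-fold and 1.76-fold lower in cKO, with log2 fold changes of -0.97 and -0.81. Both are poor in G and C (38.5% and 39.9%), and with the GC trend removed the values were -0.22 for Socs4 and -0.16 for Socs6, the second no longer passing (adjusted p 0.101). Socs5 had a log2 fold change of -0.38, and -0.19 (adjusted p 0.165) in DESeq2 as run here on the listed genes. Pias2 (-0.55) and Pias4 (-0.28) encode protein inhibitors of activated STAT. Pias2 lost its call without the GC trend (-0.09, adjusted p 0.32), and Pias4 did with relative log expression factors (-0.08, adjusted p 0.487), while without the GC trend Pias4 was at -0.67. Pias1, of the same family, was at -0.34 but at 0.17 with the GC trend removed. Ptpn1, a phosphatase of Janus kinases, was at -0.14, at 0.05 with relative log expression factors and at -0.46 with the GC trend removed. These factors, estimated from the listed genes alone, raised the median of all log2 fold changes by 0.191. With them 2 inhibitors passed as higher and 5 instead of 8 as lower, where 46.8% and 42.0% of all genes did.

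Proteins that carry the gp130 signal to other routes were listed for 6 of 8 genes, with a median of -0.45 on the log2 scale. Of these, 2 were higher and 4 lower, where 46.7% and 53.3% of all listed genes were. Ptpn11, the phosphatase SHP2 that links gp130 to the Ras pathway, had 7283.1 and 7043.6 normalised reads in cKO cells, against 12311.0 and 12953.6 in control cells (log2 fold change -0.82, limma adjusted p 8.04e-16). Fyn, a Src family kinase known for its part in myelination, was 2.24-fold lower, with 10579.3 and 10832.4 normalised reads in cKO, against 23897.0 and 23977.8 in control. The adaptor Gab1 was at -0.36 on the log2 scale, and Sos1, which activates Ras, at -0.53 but at 0.06 with the GC trend removed. Yap1, a transcriptional coactivator that gp130 can activate through Src kinases, rose 1.43-fold, and Src rose 1.35-fold, the log2 fold change of Src being 0.44, and 0.06 (adjusted p 0.818) without the GC trend.

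**Figure D3:**
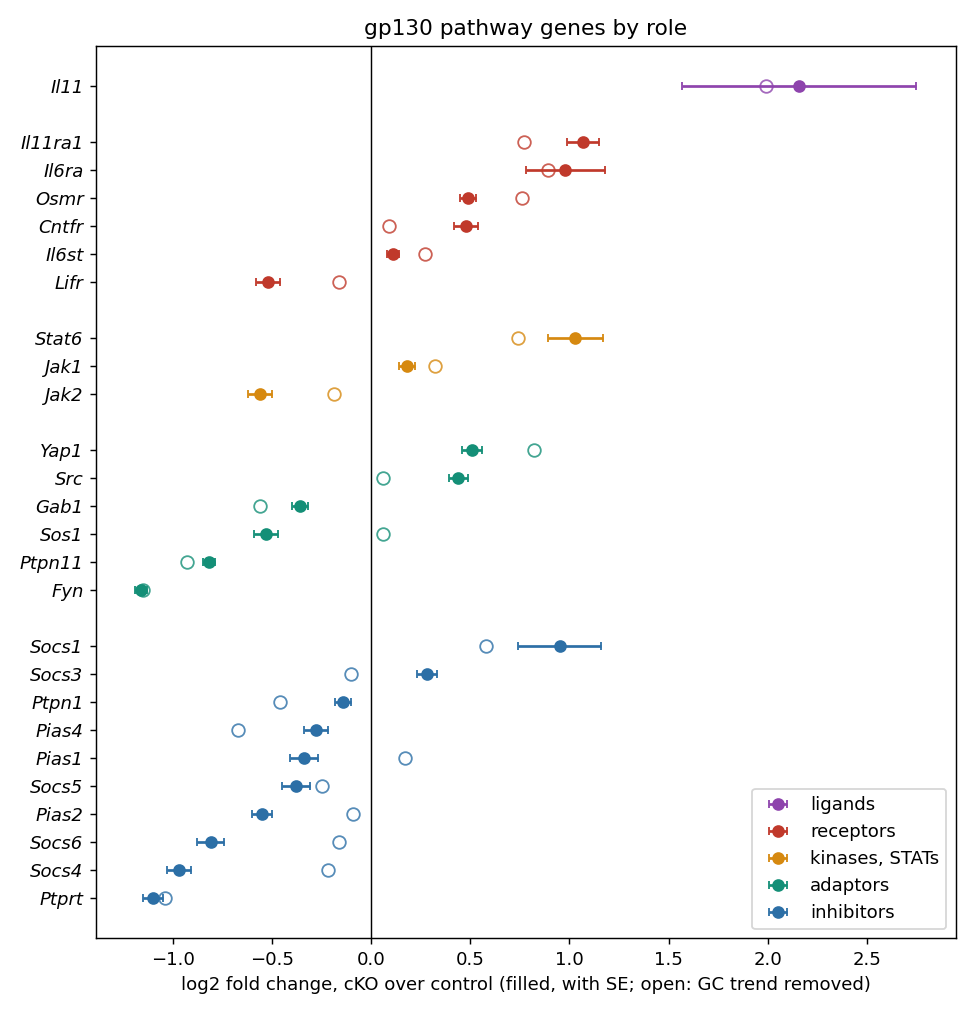
Log2 fold change, cKO over control, of the ligand Il11 and of the listed receptors, kinases and STAT factors, adaptors and inhibitors of the pathway (filled points, bars for SE), with the value after removal of the GC trend as open circles. Receptors other than Lifr lie right of 0 and 8 of 10 inhibitors lie left of 0 in the filled points. The open circles of Socs3, Pias1 and Sos1 lie on the other side of 0.

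Among the target genes, Cebpd had the largest change of the 8 members with the authors' scaling (log2 0.87, against 0.49 for Osmr), but not with the GC trend removed (0.70, against 0.76 for Osmr). Cebpd (ENSMUSG00000071637, chromosome 16, 15887286 to 15891031, plus strand) encodes C/EBP delta, which activates acute phase genes. It had 4636.9 and 4225.5 normalised reads in cKO cells, against 2399.0 and 2444.5 in control cells. Both cKO values lay far above both controls, and the rise was 1.83-fold, with means of 4431.2 ± 290.9 in cKO and 2421.8 ± 32.2 in control (SD, n = 2 each). Its log2 fold change was 0.87 (SE 0.05, limma adjusted p 4.58e-14), and 17.1% of the listed genes that were higher in cKO cells had a larger one. The span of the gene Spidr overlaps 1808 of its 3746 bases on the opposite strand, and whether exons of Spidr lie there was not checked. As the strand setting of the counting was not given in the sources used here, reads of the pair within that overlap cannot be told apart. Bcl3 (ENSMUSG00000053175, chromosome 7, 19808462 to 19822770, minus strand), a nuclear partner of NF-kappaB, had 824.7 and 702.5 normalised reads in cKO, against 589.0 and 551.8 in control. It rose 1.34-fold (0.42 on the log2 scale, SE 0.08, adjusted p 1.18e-04 in limma), with the cKO libraries farther apart than the controls. Bcl3 has the highest GC content of the members, 62.6%, and its log2 fold change was -0.003 with the GC trend removed. It overlaps a pair of antisense transcripts, Gm16175 and Gm16174.

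Of 32 STAT3 target genes 22 were listed, 18 higher and 4 lower in cKO cells, their median on the log2 scale being 0.50. Of all listed genes 46.7% were higher and 53.3% lower. With the GC trend removed 12 targets passed as higher and 3 as lower (33.3% and 35.6% of all genes tested in that fit). The list holds Gfap, Cebpd, Bcl3 and Socs3, and was drawn up with earlier results of these data known. The largest changes with the authors' scaling were those of Twist1, a transcription factor of mesenchymal cells (log2 fold change 1.73, with means of 48.2 normalised reads in cKO and 14.2 in control), and Mmp2, a matrix protease, with 1245.4 ± 10.8 in cKO and 427.3 ± 1.0 in control (log2 fold change 1.54). Ccl2, a chemokine, rose by 1.09 on the log2 scale (SE 0.26) at a low level, with 100 and 55 recovered reads in cKO and 28 and 40 in control. Icam1, an adhesion molecule, rose by 1.05 (SE 0.11). Cebpb, the close relative of Cebpd, rose 2.04-fold to 468.4 ± 61.6 normalised reads in cKO, against 230.1 ± 5.8 in control. Steap4, a metalloreductase induced by cytokines, rose 1.86-fold. The 4 targets with lower values, named after their values were seen except Pim3, were Pim3 (-0.79), a kinase, Hif1a (-0.65), the hypoxia factor, Serpina3n (-0.46), a protease inhibitor, and Mcl1 (-0.18), a survival factor. Hif1a lost its call without the GC trend (-0.09), and Mcl1 was at 0.01 with relative log expression factors.

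Receptors of other cytokines that use Janus kinases were listed for 3 of 22 genes, all 3 higher, as were 46.7% of all listed genes. Ifnar1 and Ifngr2, subunits of the interferon receptors, had log2 fold changes of 0.21 and 0.42, and Lepr, the leptin receptor, 0.78. Ifnar1 and Ifngr2 lie 213304 and 275138 bases from Olig1 on chromosome 16, the locus that carries Cre in the cKO cells.

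Removing the trend with GC content, which runs through all listed genes, left the direction and the call of 5 of the 8 members in place and moved the size of their changes. The log2 fold change of Osmr became larger, 0.76, and 0.92 with the trend with gene length removed as well. Cebpd stayed called at 0.70 and 0.65, Jak1 at 0.32 and 0.41 and Il6st at 0.27 and 0.44 in these fits. Jak2 stayed called as lower, at -0.19 and -0.21. Lifr, poor in G and C at 44.4%, had -0.16 (limma adjusted p 0.0626) and -0.02 and no longer passed. Socs3 and Bcl3 changed sign without passing. Thus 4 members passed as higher and 1 as lower with the GC trend removed, where 33.3% and 35.6% of all genes did.

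**Figure D4:**
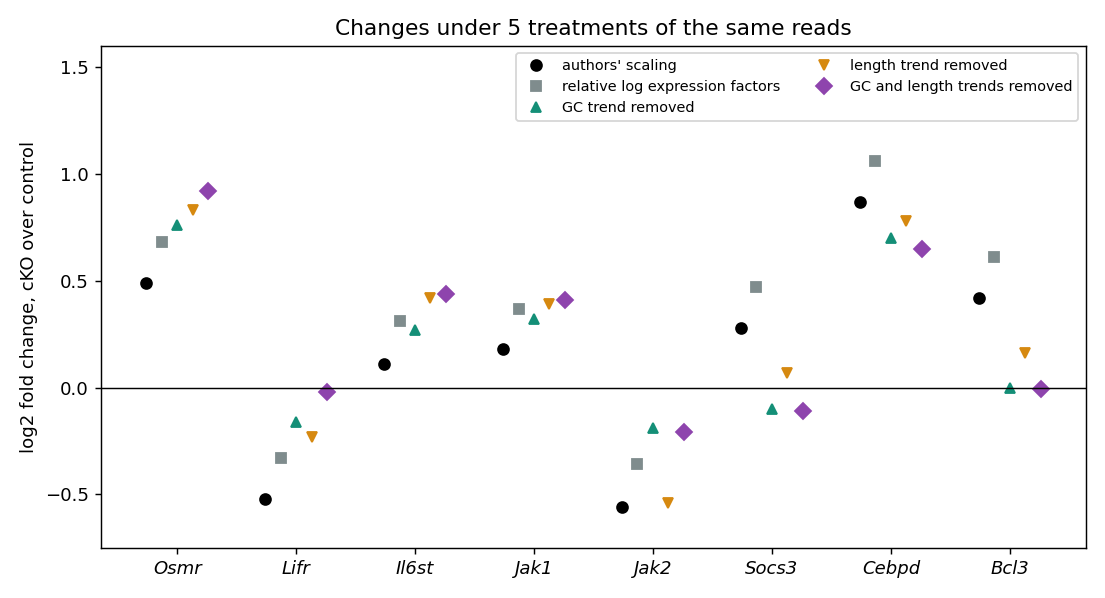
Log2 fold change, cKO over control, of the 8 members under the authors' scaling, with relative log expression factors and with the trend of all listed genes with GC content, gene length or both removed. Osmr, Il6st, Jak1 and Cebpd stay above 0 and Jak2 below 0 in all 5, Lifr runs from -0.52 to -0.02, and Socs3 and Bcl3 reach 0 or less once the GC trend is taken out.

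The genes whose values over the 4 libraries were most like those of Osmr, by Euclidean distance of centred log2 values among 6656 protein-coding genes, were Gm17018, Rap1gap2 (a GTPase-activating protein for Rap1), Plcb3 and Slc25a22 (a mitochondrial glutamate carrier), at distances of 0.0094 to 0.017 and with log2 fold changes of 0.49 to 0.50. Plcb3, a phospholipase C, had 3453.8 and 3381.8 normalised reads in cKO, against 2397.0 and 2471.0 in control. Nearest to Cebpd were Efemp2, Acot1 (an acyl-CoA thioesterase), Myl9 (a myosin light chain) and Lbp, at distances of 0.035 to 0.044. Efemp2, a matrix protein, had 3386.0 and 3181.3 normalised reads in cKO, against 1770.0 and 1788.8 in control. Lbp, a lipopolysaccharide-binding protein of the acute phase, had 421.3 and 373.8 in cKO, against 219.0 and 215.8 in control. With 4 libraries in 2 genotypes, a near pattern says little more than a like fold change.

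Markers of the labelled cell type and of other cell types differed between the same libraries. Every listed gene was called with the authors' scaling, 46.7% higher and 53.3% lower in cKO cells, and the counts of markers stand beside these shares. Markers of the oligodendrocyte lineage were present, 11 of 12 being listed, and all 11 were lower in cKO cells. Their summed levels were 85704 and 86734 normalised reads in cKO and 363786 and 365251 in control. Olig1, at -0.81 on the log2 scale, is among them, and its locus carries Cre in the cKO cells alone. The part of that change of the locus in its reads was not tested. Of 12 astrocyte markers 11 were listed, 9 higher and 2 lower, with sums of 771559 and 764521 in cKO and 511353 and 512203 in control, most of it Gfap. Of 12 markers of pericytes and fibroblasts 10 were listed and all 10 rose, the sums being 14917 and 14378 in cKO and 5310 and 5100 in control, 2.81-fold higher. Microglia markers were listed for 6 of 12, all 6 higher, with sums of 3834 and 4038 in cKO and 2717 and 2643 in control. Of 12 neuron markers 10 were listed, of which 8 were higher and 2 lower, with sums of 17749 and 17532 in cKO and 18610 and 18926 in control. Most of these sums came from the 2 lower genes, Map2 (means of 7377.9 in cKO and 10552.3 in control) and Dcx (2779.6 and 3677.1). Of 10 endothelial markers 5 were listed, 3 of them higher and 2 lower, with sums of 403 and 434 in cKO and 455 and 457 in control. Here too the 2 lower genes, Kdr and Vwf, made up most of the sums. With the GC trend removed all 11 lineage markers passed as lower and all 10 of pericytes and fibroblasts as higher. Higher and lower then numbered 9 and 1 for astrocytes, 4 and 0 for microglia, 9 and 1 for neurons and 3 and 2 for endothelial cells. Of all genes tested in that fit 33.3% were higher and 35.6% lower. No listed marker was at 0, and the lowest values in any library were 64.0 for astrocytes, 26.5 for pericytes and fibroblasts, 31.0 for microglia, 24.4 for neurons and 5.1 for endothelial cells. Astrocytes and fibroblasts are known to express Osmr, Il6st and Cebpd, and the part of these cells in the values of the 8 members was not tested.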

How the data were processed

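Per the file headers, the authors' deposited table holds a normalised signal per gene and library, genotype means, a log2 fold change, p-values and gene length. That the signal is reads divided by 1 size factor per library was inferred here from the values. The submitters' processing notes name DESeq2 and the builds mm10 and GRCm38. The aligner, counter and strand setting are not given in the sources used here. Columns of other samples numbered 0. A read was worth 0.8165 in cKO 1, 1.1866 in cKO 2, 1.0 in control 1 and 1.0181 in control 2, and 100% of 6940 values per library were whole reads within 0.01 read. Adjusted p times rank over p gave 17347 genes behind the authors' adjustment.

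All listed genes, each with a value of 1 or more in at least 2 libraries, were fitted with limma 3.58.1 (R 4.3.3) on log2(value + 1) with a variance trend and 2 residual degrees of freedom, and adjusted by Benjamini-Hochberg over 17347 genes. Selection of the listed genes for their difference may make the pooled variance too small. The log2 scale understates changes of low genes, and folds are ratios of means. As the values were normalised, edgeR 4.0.16, planned for raw counts, was run with DESeq2 1.42.0 on recovered reads as alternatives. Of these, edgeR called 3244 genes higher and 3597 lower. The factors of edgeR, DESeq2 and the relative log expression and TMM settings were estimated from the listed genes alone. They therefore rest on genes selected for a difference, unlike the authors' scaling. GC content was that of the longest GENCODE M21 transcript, and trends were loess fits (span 0.3) centred on their median. The limma script was tested on simulated data in which most genes were unchanged, unlike the listed genes, so the effect of their selection was not tested. Members and gene lists were chosen with earlier results of these data known. A further pathway gene is not reported here. Named were all members, the listed ligands, receptors, kinases, STAT factors, inhibitors and adaptors, the 8 largest changes among targets, up to 4 other receptors, and the 4 protein-coding genes of nearest pattern to Osmr and Cebpd.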

Additional observations from a re-analysis of the deposited data

How the results depend on the processing

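Osmr, Cebpd, Jak1 and Jak2 kept their direction and their call under every alternative tried, which were edgeR, DESeq2, relative log expression and TMM factors, other pseudocounts and filters, no variance trend, adjustment over listed genes, each library left out, the replicate block, and removal of the trends with GC content, length or both (the last added after seeing the data). Il6st (log2 fold change 0.11) was not called without a variance trend (0.11, adjusted p 0.151) and, among fits without 1 library (0.09 to 0.14), without control 2. Without the GC trend, log2 values were -0.10 for Socs3, -0.003 for Bcl3, -0.16 for Lifr, 0.17 for Pias1, 0.06 for Sos1 and -0.02 for Bcl2l1. With the length trend removed it was 0.07 for Socs3, 0.16 for Bcl3 and -0.05 for Fos. With both removed it was -0.11 for Socs3, -0.005 for Bcl3, -0.02 for Lifr, 0.19 for Pias1, 0.09 for Sos1, -0.09 for Fos and -0.0009 for Bcl2l1. With DESeq2 as run here, and with relative log expression factors in limma, Ptpn1 was at 0.05 and Mcl1 at 0.01. Both settings took size factors from the listed genes alone. The authors' deposited log2 fold changes were -0.14 for Ptpn1 and -0.18 for Mcl1. The cause of these turns was not tested.

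Counts of calls moved as follows. The number of lower members was 1 with the GC trend, and with both trends, removed, against 2, and that of lower receptors 0, against 1. Lower inhibitors numbered 5 in these fits and with relative log expression factors and 4 with DESeq2, against 8. Higher inhibitors numbered 0 with the GC trend, 1 with the length trend and 1 with both removed, against 2. Higher ligands numbered 0 with a minimum of 50 in 2 libraries, against 1, and 0 to 1 without 1 library. Higher adaptors numbered 1 with the GC trend and with both removed, against 2. Higher targets numbered 11 with both removed, against 18, and lower listed genes 2421, against 3696.

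The same-numbered libraries did not deviate together (correlation of deviations 0.013 over 6940 genes). With 2 libraries per genotype this cannot show whether they share an origin. With the replicate block 3242 genes were higher and 3696 lower, against 3244 and 3696, and all 8 members stayed called. The listed genes are the authors' calls on the same libraries, which limits what any refit can show, and the few reads of Il11 make its call depend on cKO 2.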
